A study of Mus musculus with 2 samples.

Results

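EWS-FLI1 peaks of a mouse osteosarcoma line are described here where they crowd together: in single megabases of the genome that hold 5 or more peaks, and on contigs that the mouse build mm9 does not place on an assembled chromosome. EWS-FLI1 joins a part of the protein EWS to the DNA-binding domain of the ETS factor FLI1. The data are 1 peak list from chromatin immunoprecipitation and sequencing (ChIP-seq) against the HA tag in SCOS#2 cells, 1 mouse line of an osteosarcoma model in which the fusion drives the tumour, grown with doxycycline (Dox ON) at 2 µg/ml for 72 h. An input library of the same treatment belongs to the series but has no peak list of its own here. Both libraries carry the same treatment, and no uninduced or replicate library was analysed.

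Each peak was placed in a bin of 1 Mb by its centre. All peaks in bins with 5 or more were kept, together with all peaks on contigs whose name ends in _random. Chromosome X, chromosome Y and the contig chrY_random were left out of this selection, and any peaks on them count among the others. This gave 273 of the 2563 deposited peaks (10.7%), against 2290 others, of which 2071 lay on numbered chromosomes. Neighbouring bins merged into 35 loci, of which 29 lay on numbered chromosomes (230 peaks) and 6 were contigs (43 peaks). All 273 are called crowded peaks below, including contig peaks in bins of fewer than 5. Because the members were picked by how closely peaks lie, their density is the rule and not a result. Widths and scores did not enter the rule. They are compared below by counts and medians without a test, since peaks of 1 library are not replicates and peaks of 1 locus are not independent. The 95% Wilson intervals given with the main shares cover counting error only and are too narrow for the same reason.

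ETS factors recognise a short DNA element with the core GGAA, and the fusion protein is known for binding long runs of GGAA repeats as well as single sites. Mouse chromosomes also hold large families of duplicated genes. Among those known are clusters of KRAB zinc finger genes, which encode DNA-binding repressors of transposable elements, on distal chromosome 4 and on chromosome 13, and clusters of defensin genes, which encode antimicrobial peptides, on proximal chromosome 8. Contigs with the ending _random hold sequence that is assigned to a chromosome but not ordered within it or, in chrUn_random, assigned to none. Gene, repeat and motif content of the peak positions below was not analysed here.

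Crowded peaks were wider than the rest of the list. The 273 crowded peaks measured 238 to 4975 bp, with a median of 844 bp and quartiles of 637 and 1319 bp, against 708.5 bp (quartiles 585 and 889 bp, n = 2290) for the others. A width of 1 kb or more was reached by 106 crowded peaks (38.8%, interval 33.2 to 44.7%) and by 358 others (15.6%, 14.2 to 17.2%), with 18.1% over the whole list. The contrast was larger among the widest. Of the 39 peaks of 2 kb or more in the list, 31 (79.5%) were crowded peaks, and so were 20 of the 26 widest 1%, which are those above 2347 bp. Of the 31, 22 lay in the 5 loci with 10 or more peaks, although the locus on chromosome 13 held 0. The 75 crowded peaks in bins of exactly 5 on numbered chromosomes included 0. The interquartile ranges overlapped from 637 to 889 bp, and the upper quartiles differed more than the lower ones.

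Scores of crowded peaks were slightly higher. The score is the peak caller's own value per peak, deposited by the authors without a stated scale. Its median was 36.54 in crowded peaks (quartiles 33.17 and 44.86, range 30.04 to 83.16) and 34.47 in the others (quartiles 32.06 and 39.4). A score of 50 or more was found in 35 crowded peaks (12.8%, interval 9.36 to 17.3%) and 168 others (7.34%, 6.34 to 8.48%), where the whole list had 7.92%. The 20 highest scores of the list included 4 crowded peaks and the 6 highest included 0, where crowded peaks made up 10.7% of the list. Among so few peaks, 0 of 6 is close to that share. Among peaks with a score of 50 or more, the crowded ones had a median width of 1588 bp (n = 35) and the others 1105.5 bp (n = 168).

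A smaller share of crowded peaks than of other peaks followed the score pattern of the list, most clearly in the largest loci. Read as −10 log10 of a Poisson probability, most scores of the list fall on steps that whole numbers of reads give over 1 genome-wide background of 1 read per 276.4 bp. A peak within 0.02 of such a step is called on a step here, and its step gives an implied number of reads. Of the crowded peaks, 107 (39.2%, interval 33.6 to 45.1%) were on a step, against 1760 of the others (76.9%, 75.1 to 78.5%) and 72.8% of the whole list. In the 5 loci with 10 or more peaks, 20 of 110 (18.2%) were on a step. The share was 53.4% in the 163 crowded peaks outside these loci, and 70.7% in bins of exactly 5 on numbered chromosomes. Crowded peaks made up 10.7% of the list but 23.9% of the peaks off the steps. A peak off the steps has no implied read number, and what background its score was computed against is not known from this list.

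Wide peaks are off the steps more often, so the shares were set side by side within classes of width. They were lower for crowded peaks in each of the 5 classes. Below 500 bp, 16 of 27 crowded peaks (59.3%) and 82.1% of 341 others were on a step. From 500 to under 700 bp the shares were 63.5% (n = 74) and 85.2% (n = 786), and from 700 to under 1000 bp 48.5% (n = 66) and 73.9% (n = 805). From 1000 to under 1500 bp they were 20.8% (n = 53) and 63.8% (n = 320). At 1500 bp or more, 1 of 53 crowded peaks (1.89%) was on a step, against 11 of 38 others (28.9%).

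Scores did not follow the same order within width classes. At 1500 bp or more the median score of crowded peaks was 44.86, below the 53.91 of the others, and from 1000 to under 1500 bp it was 40.4 against 42.24. Below 1000 bp the medians of crowded peaks were equal or higher: 34.47 against 34.47 under 500 bp, 33.71 against 33.34 from 500 bp, and 35.87 against 34.85 from 700 bp. The share with a score of 50 or more was lower in crowded peaks in the classes from 700 bp up. It was 1.52% (1 of 66) against 6.09% from 700 bp, 20.8% against 24.4% from 1000 bp, and 35.8% against 57.9% from 1500 bp. Under 500 bp it was higher (1 of 27, 3.70%, against 0.88%), as it was from 500 to under 700 bp (3 of 74, 4.05%, against 2.04%). In the classes below 1000 bp these shares rest on very few crowded peaks. Wider peaks scored higher in both sets: between width and score, Spearman's rho was 0.41 over the 273 crowded peaks and 0.34 over the 2290 others, all of 1 library.

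**Figure D1:**
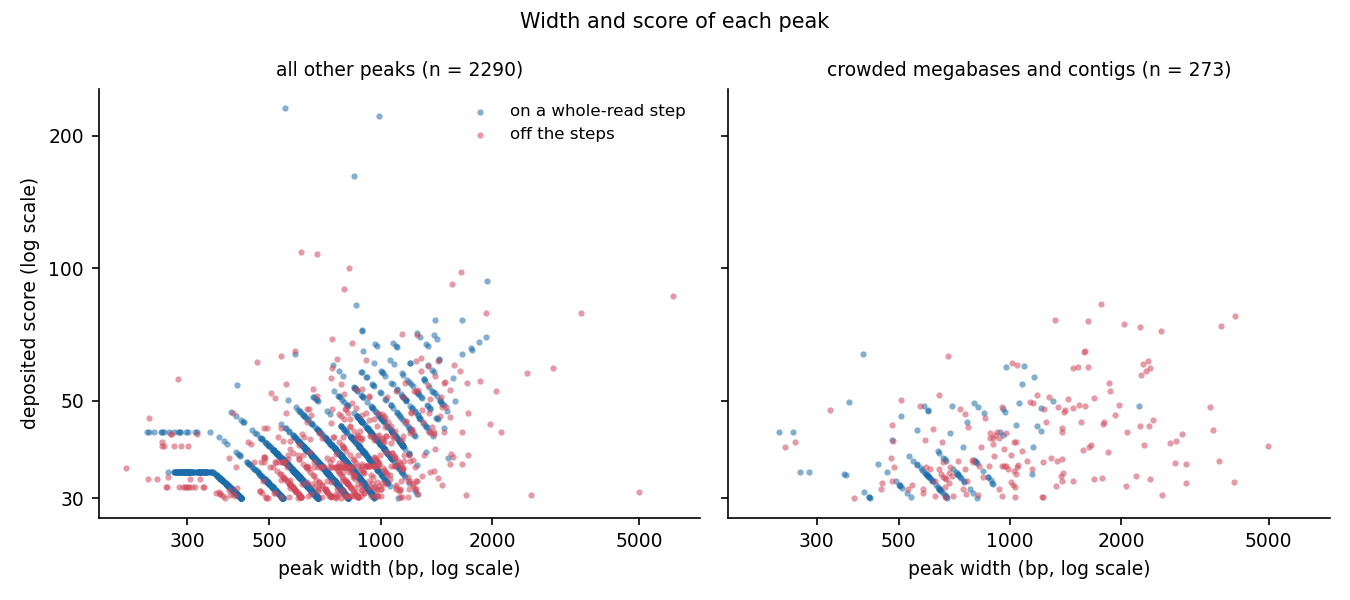
Width (bp, log scale) and deposited score (log scale) of each peak, for the 2290 other peaks on the left and the 273 crowded peaks on the right; blue points lie within 0.02 of a whole-read step and red points do not. The others form slanted lines of steps (76.9% on a step), whereas crowded peaks wider than 1500 bp are red except for 1, with scores up to 83.16.

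The 107 crowded peaks on a step had a median width and score close to those of the others on a step. Their median width was 658 bp and their median score 34.47, against 673 bp and 34.47 in the 1760 others. Their upper score quartile was higher, 42.475 against 38.89. They had 7 to 23 implied reads with a median of 10, and the median ratio of implied to expected reads was 4.10, against 3.96 in the others. A step ties width, score and read number by 1 formula, so close read numbers and ratios follow in part from the definition. The 166 crowded peaks off the steps had a median width of 1045 bp and a median score of 39.19, against 812.5 bp and 35.38 in the 530 others off the steps. The difference in median width was thus seen among the peaks off the steps. Because wide peaks are off the steps more often, this split is not independent of width.

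Pooled over loci, width and step share were level up to megabases of 5 peaks and differed from 6 on, not at the threshold of the rule. On the numbered chromosomes, the 42 bins of 4 peaks, just outside the rule, contained 168 peaks. Their median width was 692.5 bp, their median score was 34.47, and 126 of the 168 were on a step. Just inside it, the 15 bins of exactly 5 contained 75 peaks, for which these values were 688 bp, 36.32 and 53 of 75 (70.7%). In bins of 1, 2 and 3 peaks the step shares were 76.5%, 75.9% and 76.2%. In the 11 bins of 6 to 9 peaks (76 peaks) the median width was 956 bp and the step share 34.2%, and in the 5 bins of 10 to 24 peaks (79 peaks) they were 896 bp and 22.8%. These 5 bins belong only to the loci on chromosomes 4, 13 and 8. Single loci of 6 or more differed widely: median widths ran from 601.5 bp (chromosome 13) to 1851 bp (chromosome 8). Their step shares ran from 0 of 7 (chromosome 5) to 6 of 6 (chromosome 15). The 1 bin of chromosome X that held 5 or more peaks, at 41 Mb, was left out by the rule, so its peaks count among the others. Of its 7 peaks 6 were on a step, with a median width of 695 bp.

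**Figure D2:**
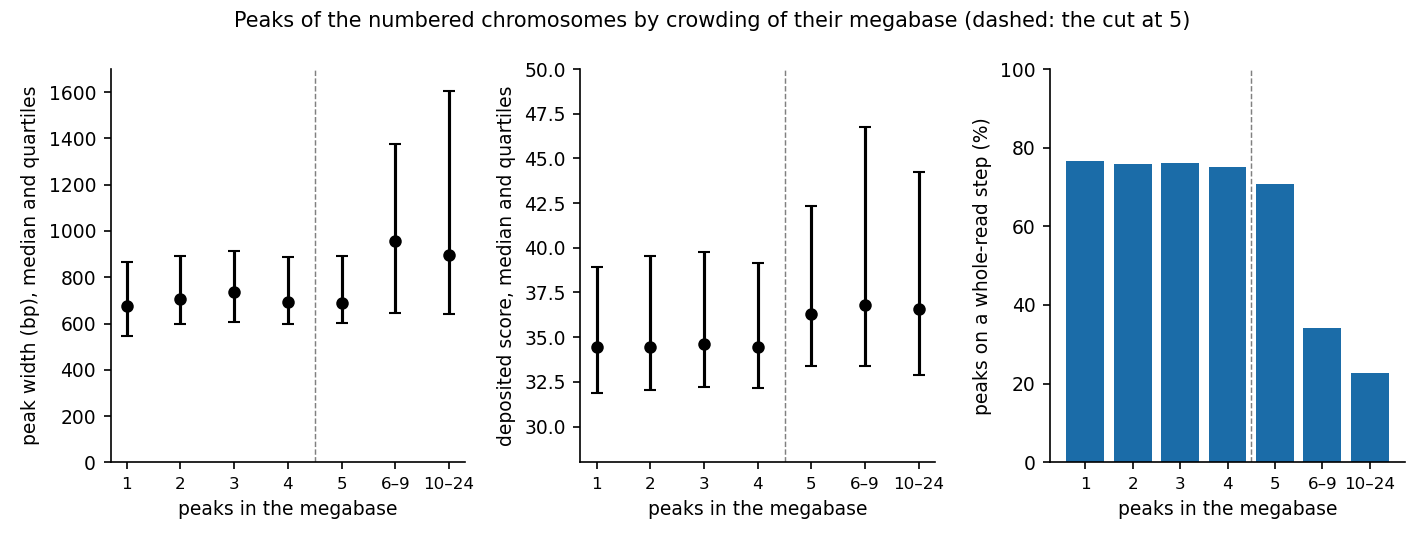
Peaks of the numbered chromosomes by the number of peaks in their megabase: median and quartiles of width (left, bp) and of score (middle, axis not from 0), and the percentage on a whole-read step (right, bars from 0), with the rule's threshold of 5 dashed. Pooled over loci, width and step share are level up to 5 peaks and differ from 6 on, where the step share is 34.2% and then 22.8%.

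Among crowded peaks the step share was lower for those with a near neighbour, and outside crowded places it was not. Another centre lay within 10 kb of 110 crowded peaks, of which 25.5% were on a step, and of the 163 crowded peaks without such a neighbour 48.5% were. Those with a neighbour were also wider, with a median of 1039.5 bp against 734 bp, and 54 of them lay in the 5 loci with 10 or more peaks. Wide peaks are off the steps more often, and the neighbour was not separated here from width or locus. Outside the crowded megabases, 207 peaks also had a neighbour within 10 kb, and 77.8% of these were on a step, with a median width of 786 bp. None of those 207 reached 2 kb (widest 1972 bp), but only 8 of all 2290 others (0.35%) and 1.52% of the whole list did. Of the crowded peaks, 19 of the 110 with a neighbour (17.3%) and 12 of the 163 without (7.36%) reached 2 kb.

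The locus with the most peaks was on distal chromosome 4, where 44 lay between 145107862 and 146999306 (1891 kb). It began abruptly: the preceding peak centre lay 4.68 Mb before the first one, and the 4 megabases from 141 to 145 Mb held 0 peaks. On the other side the next centre followed after 24.4 kb, and the megabase from 147 to 148 Mb held 2 peaks, which the rule left out. The median width was 942 bp and the median score 35.99, and 7 of the 44 peaks were on a step. The median distance between neighbouring centres was 29.1 kb (range 1148.5 bp to 220.6 kb). Peaks covered 3.16% of the locus.

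The highest score on distal chromosome 4 was 75.86, at 146158557 to 146160176 (1620 bp). A second peak of 589 bp (score 40.74) began only 44 bp after its end, and both belonged to a group of 4 peaks from 146147161 to 146160809. The group of 5 from 146231634 to 146248614 was led by a peak of 2287 bp with a score of 60.74, followed after 65 bp by a peak of 1926 bp (46.46). Further scores of 50 or more were 71.88 (145366399 to 145368954), 59.3 (145599808 to 145602203, in a group of 3) and 63.98 (146391567 to 146391967). The last of these was unlike the other 4: it was the narrowest peak of the locus at 401 bp, it was on a step, and its 11 implied reads were 7.58 times the expected 1.45. That was the highest such ratio among all crowded peaks on a step.

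Widths differed along the chromosome 4 locus. In the megabase from 145 to 146 Mb the 20 peaks had a median width of 884 bp and a median score of 33.69, and in the next one the 24 peaks had medians of 1048.5 bp and 38.80. Beyond 146.5 Mb, a boundary chosen after the values had been seen, all 8 peaks were wider than 1 kb (1006 to 4975 bp, median 2599 bp). Their scores were moderate, 32.48 to 44.76, and 0 of the 8 were on a step. They included the widest crowded peak, 146774484 to 146779458 (4975 bp, score 39.42), and an abutting pair of 2805 and 2990 bp with a gap of 81 bp (146728498 to 146731302 and 146731384 to 146734373).

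Chromosome 13 had 24 peaks between 65463575 and 66952229 (1489 kb), with a lower median width than the rest of the list. The 24 peaks measured 238 to 1588 bp, with a median of 601.5 bp and quartiles of 504.5 and 966 bp, against 708.5 bp (quartiles 585 and 889 bp) outside crowded places. A width of 1 kb or more was reached by 5 of the 24 (20.8%), against 15.6% outside. The median score was 37.32, and 9 of the 24 were on a step. The preceding centre lay 4.38 Mb away and the next one 1.18 Mb. Neighbouring centres were a median of 55.9 kb apart, and the locus held 0 groups of 3 or more peaks within 10 kb. Scores of 50 or more were 64.5 (65899545 to 65901132, also the widest), 59.31 (66085394 to 66086872), 51.59 (65530117 to 65531295) and 50.09 (65476790 to 65477298), all off the steps. The narrowest of all crowded peaks lay here as well, at 66169257 to 66169494 (238 bp, score 42.53), with 8 implied reads over 1.27 expected (6.28-fold).

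Chromosome 8 had the highest median width of any locus with 5 or more peaks, 1851 bp. Its 11 peaks lay between 19042815 and 19961438 (919 kb) and had a median score of 38.27. The 2 peaks on a step were the first ones, 658 and 896 bp wide, at 19042815 to 19043472 and 19489060 to 19489955. The other 9 were all off the steps. They included a group of 4 from 19727457 to 19741889, whose first peak (2251 bp, score 73.61) was followed after 19 bp by one of 2239 bp (43.73). At the end of the locus, a peak of 2991 bp (19954380 to 19957370, score 35.84) was followed after 26 bp by the highest and widest one (19957397 to 19961438, 4042 bp, 78.04). The third score of 50 or more was 54.75, at 19752461 to 19754311.

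The contig chr1_random carried the highest scores as a group among the 5 loci with 10 or more peaks. Its 18 peaks lay between 481192 and 1027673 with a median score of 46.15 and a median width of 1042.5 bp, and 6 had a score of 50 or more. These were 74.55 (763627 to 765658), 64.81 (750511 to 752101), 61.07 (828751 to 829760), 60.38 (588844 to 589888), 57.13 (923524 to 925780) and 51.52 (917545 to 918188). Only 1 of the 18 was on a step (553665 to 554484, 13 implied reads). Peaks lay a median of 13.3 kb apart and covered 4.17% of the span, and 3 groups of 3 peaks within 10 kb lay at 588844 to 601566, 917545 to 925780 and 1022416 to 1027673.

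The contig chr8_random carried 13 peaks between 50133 and 786434, of which 1 was on a step. Their widths had a median of 1382 bp and their scores a median of 40. Its highest score was 61.43 (377106 to 379469), and its widest peak had a score of 32.74 over 4026 bp (708913 to 712938). A group of 3 peaks within 10 kb lay at 169766 to 180837 and scored up to 47.1. The other 4 contigs had 12 peaks in all. On chr7_random and chrX_random all 3 peaks each were on a step, with median widths of 614 and 701 bp. Of the 5 peaks of chrUn_random 2 were on a step, and the single peak of chr4_random (5539 to 6970, score 50.44) was not.

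**Figure D3:**
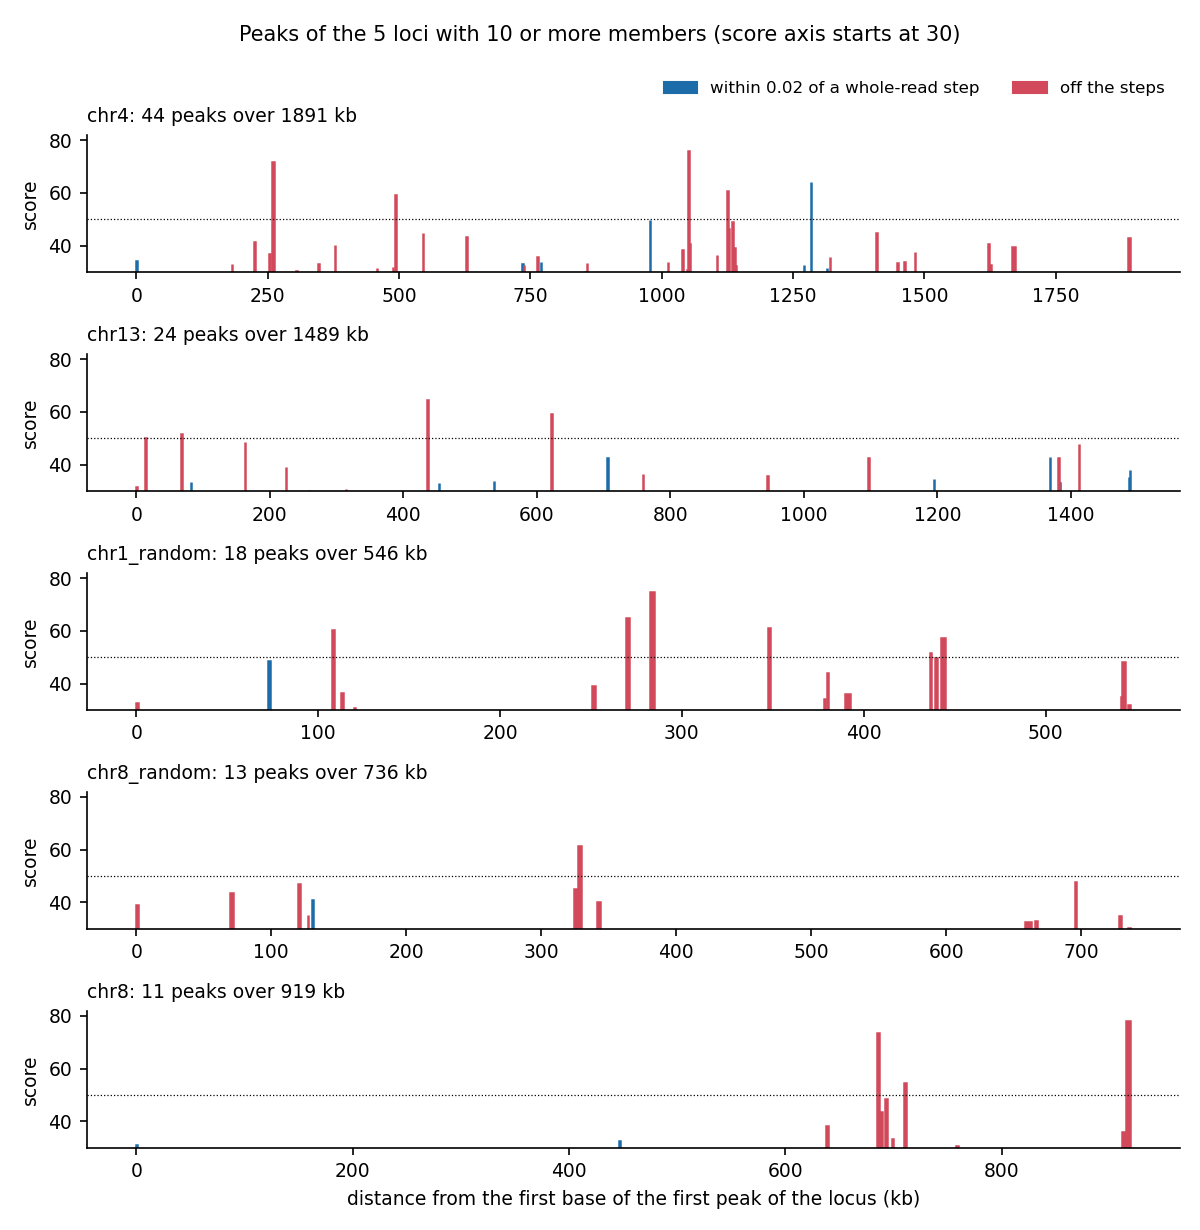
Peaks of the 5 loci with 10 or more members, by distance from the first base of the first peak (kb); each bar spans the peak's width and rises from 30 to its deposited score, blue on and red off the whole-read steps, with a score of 50 dotted. Bars are outlined, so the narrowest are drawn slightly wider than to scale. Red bars prevail in all 5 loci (90 of 110 peaks), and chr13 has the largest number of blue ones (9 of 24).

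Chromosome 1 had 2 loci of 6 or more peaks, both with few or no peaks on a step. From 85022446 to 85343589 lay 8 peaks, of which 1 was on a step. They were a median of 1159.5 bp wide and scored a median of 40.36. The highest, 59.68 at 85313526 to 85315154, was followed after 87 bp by another of 1539 bp (score 49), within a group of 3 from 85308199 to 85316780. The preceding centre lay 31.8 kb before this locus, in a bin the rule did not keep. From 87354374 to 87514644 lay 6 peaks, 482 to 2076 bp wide with scores of 34.21 to 48.63, and 0 were on a step.

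The other loci of 6 to 9 peaks lay on chromosomes 3, 5, 6, 7, 14, 15 and 16. Chromosome 6 (47096188 to 47847321, 6 peaks) held the highest score of all crowded peaks, 83.16 at 47714618 to 47716381, a second of 59.68 (47688633 to 47690155), and 1 peak on a step. Chromosome 7 (67017767 to 67824346, 6 peaks) held a score of 76.3 at 67037885 to 67039203. Chromosome 5 had 7 peaks from 14271957 to 14997211, of which 0 were on a step. They included 73.97 at 14939905 to 14943623 (3719 bp) and a pair 48 bp apart, led by 50.88 at 14918610 to 14919887. Chromosome 3 (92013208 to 92501240, 7 peaks) had a median width of 1772 bp, a highest score of 58.49 (92045173 to 92047508) and a group of 3 from 92062280 to 92081880. Chromosome 5 also had 9 peaks from 105001800 to 105796669 (median width 670 bp), 5 of them on a step, with a highest score of 50.76 (105520050 to 105521731) and a group of 3 from 105789368 to 105796669. Chromosomes 16 and 14 had no score of 50 or more in their loci of this size. These were on chromosome 16 (3046988 to 3967215, 9 peaks, 4 on a step) and chromosome 14 (42289066 to 42964869, 6 peaks, 4 on a step, and 44029080 to 44811769, 6 peaks, 1 on a step).

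Chromosome 15, from 60067424 to 60913034, was the only locus of 6 or more peaks in which all were on a step (6 of 6). They were also wide and high, with a median width of 1124 bp and a median score of 43.7. The peak with the highest score, 60.12 at 60231284 to 60232376, had 17 implied reads over 3.95 expected (4.30-fold). Next to it lay a peak with 14 implied reads (60233673 to 60234827, score 39.22). The first peak of the locus (60067424 to 60068731, score 50) also had 17 implied reads, over 4.73 expected.

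The 15 loci of exactly 5 peaks, with the pooled median width of 688 bp and step share of 70.7% given above, differed among themselves. In 7 of the 15 the share on a step lay below the 76.9% of the others, and in 4 all 5 peaks were on a step: chromosome 2 at 90021739 to 90868047 and 116285019 to 116965811, chromosome 4 at 19118041 to 19941942, and chromosome 16 at 47132139 to 47536240. The last of these had a score of 54.46 at 47376729 to 47377806, with 16 implied reads, leading a group of 3 up to 47382550. The second chromosome 2 locus also held a group of 3 (116315078 to 116323817). Chromosome 10 (103035846 to 103630750) had the highest median score of any locus with 5 or more, 48.39. Its scores of 63.28 (103618235 to 103618912) and 52.73 (103628888 to 103630750) were in a group of 3, all off the steps. Scores of 50 or more were also found on chromosome 2 (59.76 at 16297991 to 16298968, 16 implied reads) and chromosome 4 (56.51 at 61342208 to 61343371, 17 implied reads). Chromosome 9 (8028855 to 8788120) had a median width of 1378 bp and 2 of 5 peaks on a step.

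The remaining loci of exactly 5 had no score of 50 or more. These were chromosome 1 at 145225479 to 145917714 (highest score 49.67), chromosome 3 at 56017172 to 56657497 (44.04), chromosome 4 at 23021882 to 23834454 (47.55), and chromosome 6 at 95097521 to 95800622 (36.32). They also included chromosome 7 at 23004855 to 23911785 (42.27) and chromosome 16 at 74208280 to 74977474 (47.8) and 76059860 to 76795679 (41.17).

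Over the 32 loci with 5 or more peaks, median widths ran from 533 bp (chromosome 4 at 23 Mb) to 1851 bp (chromosome 8), and median scores from 32.2 to 48.39. The median width was above that of the others in 19 of the 32, and the median score in 25 of the 32. All peaks were on a step in 5 loci and 0 peaks in 2. At most 25% were on a step in 9 loci, and 75% or more in another 9. Loci with a lower share on a step had wider peaks (Spearman's rho -0.57 over the 32 loci, as a description, since all come from the same library and some have only 5 peaks). This relation is not particular to crowded peaks: of the others, 82.1% were on a step below 500 bp and 28.9% at 1500 bp or more.

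**Figure D4:**
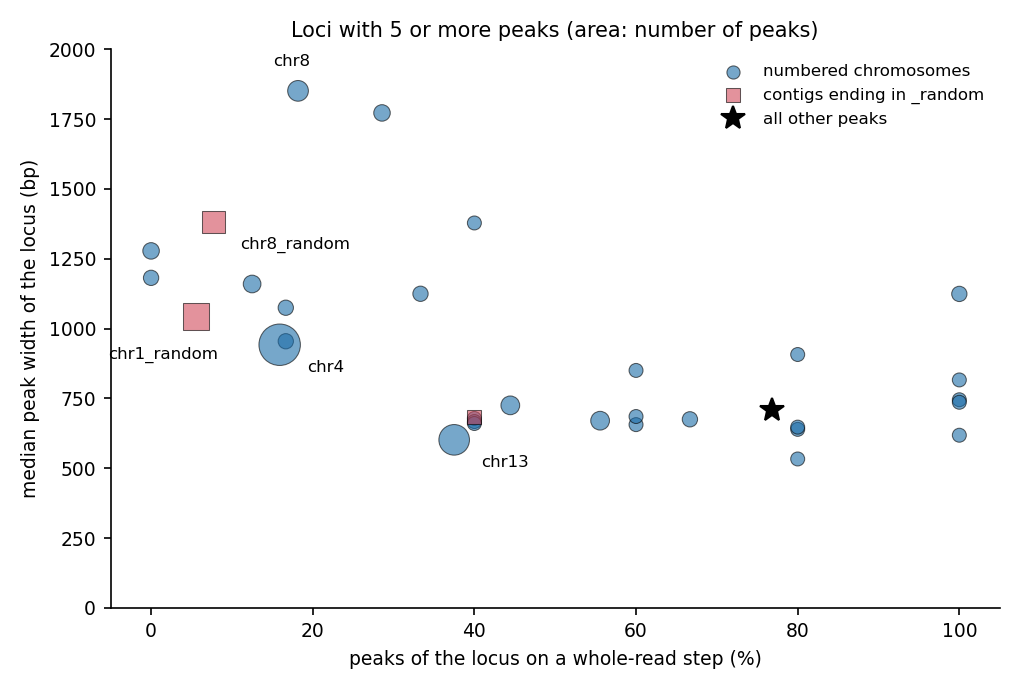
Percentage of peaks on a whole-read step (horizontal) and median peak width (vertical, bp) of the 32 loci with 5 or more peaks; the area of a point grows with its number of peaks, squares are contigs, and the star is the value of all 2290 other peaks (76.9%, 708.5 bp). Chromosome 8 lies highest at 1851 bp, and chromosome 13 lies lower than the star in both values (37.5%, 601.5 bp).

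Directly abutting peaks were found among the crowded ones in 7 places. Of 64 steps between neighbouring crowded peaks with centres within 10 kb, 7 (10.9%) had edges at most 100 bp apart, against 6 of 107 (5.61%) outside. The 7 pairs lay on chromosome 4 (3), chromosome 8 (2), chromosome 1 and chromosome 5, with gaps of 19 to 87 bp, and in 6 of the 7 at least 1 partner was wider than 1500 bp. In the 6 pairs outside crowded places the partners were 450 to 1019 bp wide. Larger gaps were common in both sets: the median distance between edges was 2638 bp in crowded and 1400 bp in other neighbours. In all, crowded places held 14 of the 21 groups of 3 or more peaks within 10 kb in the list. They also held 32 of the 125 pairs, and 10.7% of all peaks. Members were picked by how closely peaks lie, so these counts describe the rule and are not a result.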

How the data were processed

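HA ChIP-seq and input DNA of SCOS#2 cells give 1 deposited peak list; the labels name 1 sample each, so no value carries a replicate error. Cutadapt, Bowtie2 2.2.0 and mm9 come from the submitters' processing notes, and MACS with an input from the name of the deposited list; not given in the sources used here are its version, threshold and duplicate handling. The score is the authors' deposited value per peak, on an unstated scale. Read totals are not in the list, so depth is unknown.

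Starts were converted to 1-based coordinates. Scores were read as −10 log10 Poisson tails: the commonest score (34.47, 98 peaks) was set to 7 reads, which gave 1 read per 276.4 bp, constant up to a window of 352 bp and proportional to width above it. Whole-read steps were matched within 0.02. This reading, and the starting count of 7, came from earlier results of these data. Members, loci and comparisons were likewise chosen with earlier results of these data known. By rule, every locus, its highest or widest peak where described, crowded peaks with scores of 50 or more and groups of 3 or more within 10 kb were named; abutting pairs, single implied counts and the part of chromosome 4 beyond 146.5 Mb were chosen after their values were seen. Scripts (Python 3.11.15, numpy 2.4.6, pandas 2.3.3, scipy 1.17.1) were tested on simulated data. No test across peaks was run. A gene table of another build (GRCm38) was not used.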

Additional observations from a re-analysis of the deposited data

How the results depend on the processing

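Of 77 recalculated differences between crowded and other peaks, 62 moved by no more than the distance from the crowded peaks' main value to the bound of its 95% binomial interval on that side, and 0 changed sign. Of 28 recalculated member counts and spacings, 21 stayed within 1.5 times or within that interval. Another 9 recalculations could not move a value and are not counted. Members numbered 441 with at least 4 peaks in a bin, 122 with at least 10, 165 with bins of 0.5 Mb, 169 above the median score and 35 at a score of 50 or more. The median width difference (crowded minus other, 135.5 bp) was 248 bp with at least 6 peaks in a bin, 245 bp with at least 10, 271.5 bp with bins of 0.5 Mb and 482.5 bp at a score of 50 or more. The difference in the share of 1 kb or wider (23.2 percentage points) was 13.5 with at least 4 peaks, 30.7 with 6, 30.9 with 10 and 33.1 with bins of 0.5 Mb. The difference in the share on whole-read steps (-37.7 points) was -24.2 with at least 4 peaks, -49.4 with 6, -52.4 with 10, -30.6 with bins shifted by 0.5 Mb, -54.5 with bins of 0.5 Mb, -48.3 at a score of 50 or more and -23.1 among peaks of 1 kb or narrower. The median distance between neighbours within a locus (44635 bp) was 28564 bp with bins of 0.5 Mb and 81011 bp at a score of 50 or more. Leaving out the 5 loci with 10 or more peaks 1 at a time, the contigs or the 1% widest peaks moved no value beyond these limits. Nor did comparing with other peaks of numbered chromosomes only, which was added after seeing the data. The 163 crowded peaks outside all 5 loci had a median width of 755 bp, with 30.7% of 1 kb or wider and 53.4% on a step. These 3 values lay outside the main intervals. Their median score (36.35) and share of scores of 50 or more (9.82%) lay inside. The intervals treat peaks as independent and are too narrow. No peaks touched, so merging changed nothing. Motif and gene context were not run. Repeatability is unknown. No paired analysis was possible because ChIP and input are 1 library each.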
